A study of Mus musculus with 8 samples.

Results

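PP-cells are the endocrine cells of the islet that make pancreatic polypeptide, the product of *Ppy*. They were taken here as cells in which *Ppy* gave at least 50% of the UMIs (unique molecular identifiers, each a captured RNA molecule) of the 5 hormone genes *Ins1*, *Ins2*, *Gcg*, *Sst* and *Ppy*. Such a cell also had to hold at least 3000 UMIs, of which the 5 hormone genes gave at least 1%. By this rule 159 of 17426 barcodes were PP-cells, or 2.09% of the 7590 cells led by 1 hormone in this way. The same limits with *Gcg* or *Sst* in place of *Ppy* gave 589 α-cells and 205 δ-cells, and with the insulin genes 6637 β-cells. The cells were chosen by their UMIs of the 5 hormone genes, so the levels of these genes are given as a description, and the genes were left out of the tests.

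The islets came from male C57BL6/J mice of 12 to 16 weeks. The islets of 10 mice were pooled for each of 2 replicates and divided over 4 conditions of 18 h. Islets were left untreated, or received the cytokines IL-1β (10 U/mL) and IFN-γ (150 U/mL), both cytokines and the nitric oxide synthase inhibitor NMMA (2 mM), or NMMA by itself. This gave 8 droplet libraries of 26549922 to 50731370 UMIs. The paper names kit version 3 and the labels version 2, and the count tables of the replicates list different numbers of genes (31053 and 32285). The libraries of a replicate share a pool of mice, so p-values below describe the spread between 4 or 8 libraries from 2 pools.

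Pancreatic polypeptide and peptide YY belong, with neuropeptide Y, to 1 family of short amidated peptides that act on G protein-coupled Y receptors. Pancreatic polypeptide is released after meals and slows pancreatic secretion and gut motility, and PP-cells are most frequent in the part of the pancreas that derives from the ventral bud. They share developmental regulators with the other islet cells: *Hhex* directs the δ-cell fate, and *Pdx1* and *Nkx6-1* act in β-cells. *Ppy* and *Pyy* are neighbours on mouse chromosome 11 (GRCm38.p6), where *Ppy* spans 102099931 to 102101319 and *Pyy* 102106676 to 102107832. They lie 5356 bases apart on the minus strand, with 0 annotated genes of RefSeq between them.

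The RefSeq promoter windows of both genes are shown because *Ppy* defines these cells and *Pyy* was higher in them than in α- and δ-cells in each of the 4 libraries without cytokines. Each runs 5′ to 3′ from 250 bases before to 50 after the annotated start, and the capitals mark the letters TATAA.
Ppy, chr11:102101270-102101569, minus strand: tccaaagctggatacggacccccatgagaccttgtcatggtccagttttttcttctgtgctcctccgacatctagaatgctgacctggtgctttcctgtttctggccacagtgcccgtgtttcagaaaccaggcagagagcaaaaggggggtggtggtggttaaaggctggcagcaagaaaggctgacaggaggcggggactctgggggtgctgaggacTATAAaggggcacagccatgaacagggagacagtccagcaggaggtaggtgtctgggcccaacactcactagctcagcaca
Pyy, chr11:102107783-102108082, minus strand: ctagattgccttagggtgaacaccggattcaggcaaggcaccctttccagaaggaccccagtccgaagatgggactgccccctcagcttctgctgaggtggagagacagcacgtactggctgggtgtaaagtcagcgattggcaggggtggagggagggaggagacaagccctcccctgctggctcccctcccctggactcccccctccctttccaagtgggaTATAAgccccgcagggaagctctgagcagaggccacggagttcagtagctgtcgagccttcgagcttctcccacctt
TATAA begins 31 bases before the start of *Ppy* and 27 before the *Pyy* start used here. It is not particular to these genes: it begins 24 bases before the start of *Gcg*, while the *Sst* window holds none. RefSeq gives a further start of *Pyy*, whose window (chr11:102107727-102108026) holds TATAA 83 bases before it. Of 32817 promoter windows of this length, 3.52% hold TATAA at 20 to 40 bases before the start on the strand of the gene, and 24.9% hold it anywhere on either strand. TAAT, the core of many homeodomain sites, is in neither the *Ppy* window nor the *Pyy* windows on either strand, against 58.0% of all windows.

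PP-cells were found in each library. The untreated libraries held 45 and 27 of them (replicates 1 and 2), NMMA alone 15 and 16, cytokines 7 and 8, and cytokines with NMMA 22 and 19. As a share of the cells led by a hormone these were 2.30% (95% exact Clopper-Pearson interval 1.68 to 3.07) and 3.37% (2.23 to 4.86) in untreated libraries and 1.87% and 1.82% with NMMA. With cytokines they were 0.590% (0.237 to 1.21) and 1.30% (0.564 to 2.55), and with cytokines and NMMA 2.82% and 3.35%. By this denominator, which is mostly β-cells, the libraries with cytokines alone had the lowest shares. As a share of PP-, α- and δ-cells together they were not both lowest: PP-cells gave 13.5% and 11.1% with cytokines, 15.3% and 11.6% with NMMA, 21.7% and 18.5% untreated, and 15.9% and 18.6% with cytokines and NMMA. The interval of cytokines replicate 1 lies below those of both untreated libraries and overlaps those of NMMA alone, and that of replicate 2 overlaps those of the other conditions. The intervals cover counting error only, and the hormone content that picks the cells could itself move with treatment. A PP-cell held a median of 18356 UMIs (3344 to 52013) over 3815 genes, with 3.42% mitochondrial UMIs. Of 34 barcode sequences present in more than 1 library, 0 were PP-cells, and a doublet score called 99 of 10876 kept barcodes (0.910%) and 0 of the PP-cells.

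The markers *Ppy* and *Pyy* were abundant together. In the 103 PP-cells without cytokines *Ppy* gave a median of 23.8% of all UMIs, against 0.0411% in α-cells, 2.09% in δ-cells and 0.0100% in β-cells. *Pyy*, which the rule did not use, gave 9.97% in PP-cells, 0.931% in α-cells, 6.25% in δ-cells and 0.00544% in β-cells. *Pyy* was therefore also a major transcript of δ-cells, and the median ratio of *Pyy* to *Ppy* UMIs was 0.485 in PP-cells, 6.05 in α-cells and 3.02 in δ-cells. After each cell was thinned to 3000 UMIs, *Ppy* was seen in 69.2% of α-cells and 96.2% of δ-cells, beside 28.8% of macrophages and 33.8% of β-cells, which should lack it. Without thinning these shares were 88.1%, 97.7%, 69.5% and 87.5%, so a *Ppy* UMI by itself did not mark a PP-cell.

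*Ppy* was often accompanied by another hormone. It gave at least 90% of the hormone UMIs in 82 PP-cells (51.6%) and at least 80% in 103 (64.8%). With a limit of 5% of the hormone UMIs, set after the values were seen, 94 PP-cells carried neither *Gcg* nor *Sst*, 34 carried *Gcg* without *Sst* and 31 carried *Sst*, 2 of which carried *Gcg* as well. In 23 PP-cells the insulin genes gave 10% or more. The hormone genes took a median of 32.5% of all UMIs in cells with neither, 26.8% in those with *Gcg* and 8.25% in those with *Sst*. From the other side, *Ppy* gave at least 20% of the hormone UMIs in 99 of 205 δ-cells (48.3%) and in 31 of 589 α-cells (5.26%). Just below the limit, 37 cells had *Ppy* at 40 to 50%, and *Sst* came next in 29 of them. Just above it, 25 had 50 to 60%, and *Sst* came next in 16. The boundary with δ-cells was thus crowded. Of the 94 cells with neither *Gcg* nor *Sst*, 17 had the insulin genes at 10% or more.

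The carriers of a second hormone were uneven over the libraries. *Sst* carriers numbered 8 and 5 in the untreated libraries, 4 and 2 with NMMA, 1 and 0 with cytokines, and 11 and 0 with cytokines and NMMA. The 11 were among 22 PP-cells of that library, which had the lowest median *Ppy* share of the 8 libraries (67.8%). Carriers of *Gcg* without *Sst* numbered 7 and 6, 2 and 5, 2 and 1, and 4 and 7 in the same order.

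**Figure D1:**
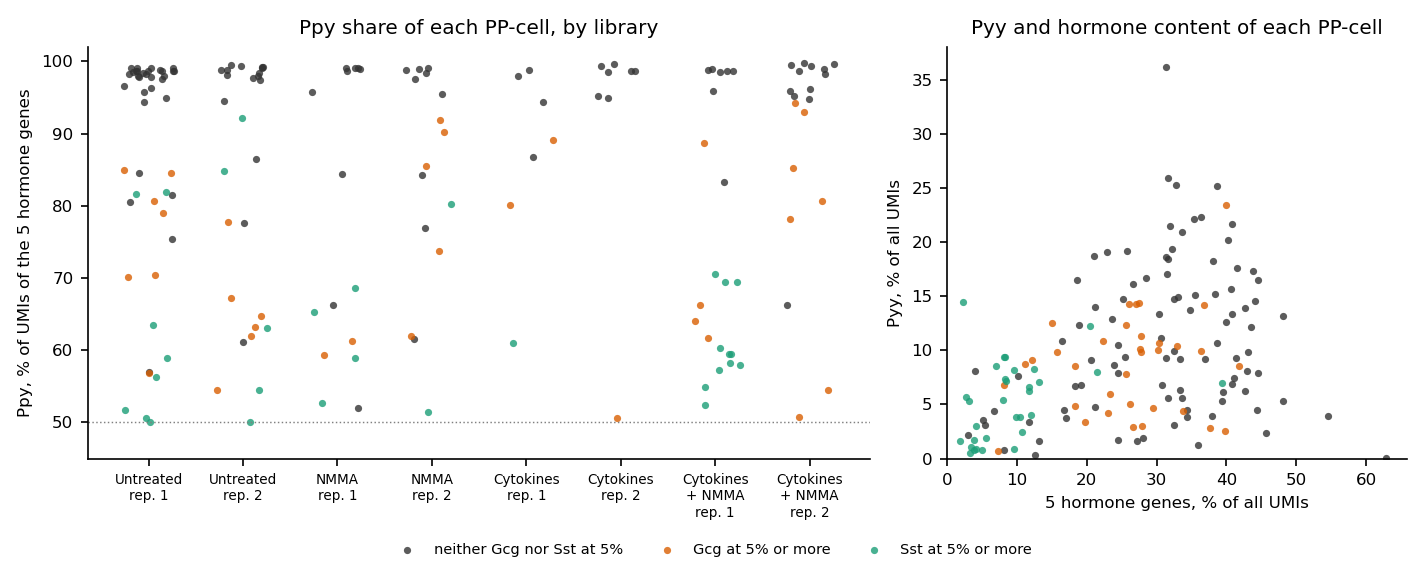
Left, the percentage of the UMIs of 5 hormone genes that *Ppy* gave in each of the 159 PP-cells, by library, with the 50% limit dotted; right, *Pyy* against the 5 hormone genes, both as a percentage of all UMIs, 1 point per cell. Colours give the second hormone at 5% or more; cells with *Sst* (31) lie at a low hormone content (median 8.25%) and those with neither (94) reach the highest *Pyy*.

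How PP-cells differ from α- and δ-cells was asked in the 4 libraries without cytokines, with 103 PP-cells, 354 α-cells and 132 δ-cells. UMIs were summed per class and library, without the 5 hormone genes, into 1448884, 4397718 and 1365858 UMIs, and tested with edgeR's quasi-likelihood test with the library as a block. Levels are CPM, edgeR's scaled UMI counts with the hormone genes left out, as mean ± SD of the 4 libraries, and changes are log2 differences, where 1 is a 2-fold difference. Of 6979 genes tested, 349 were higher in PP- than in α-cells (5.0%) and 317 lower (4.54%). Against δ-cells 330 were higher (4.73%) and 362 lower (5.19%). These shares of all genes are given for comparison with the counts of listed genes below. Scaling by total UMIs moved the median of all genes by -0.20 against α-cells and -0.14 against δ-cells, and the calls became 192 higher and 992 lower, and 213 higher and 565 lower. With untreated replicate 1 left out, the library with most PP-cells, there were 199 higher and 166 lower against α-cells, and 192 and 208 against δ-cells. Without NMMA replicate 1 there were 225 higher against α-cells.

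As a description over those 6979 genes, the correlation of log2(CPM + 1) between PP- and α-cells was 0.911 and 0.928 in the untreated libraries and 0.843 and 0.901 with NMMA. Between PP- and δ-cells it was 0.864, 0.812, 0.823 and 0.782, between PP- and β-cells 0.864, 0.861, 0.812 and 0.853, and between α- and δ-cells 0.810, 0.781, 0.790 and 0.796. PP-cells were closer to α-cells than to δ-cells in each of the 4 libraries. Genes are not independent replicates, and the classes of a library differ in depth.

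*Pyy* was higher in PP-cells, taken as a class, than in both neighbours. Its level in PP-cells was 162927 and 184925 CPM in the untreated libraries and 164289 and 186462 with NMMA. In δ-cells it was 66982, 92824, 82064 and 79881 CPM and in α-cells 20392, 23956, 23204 and 29425, so the library sums of the 3 classes did not overlap. The log2 difference was 2.93 (SE 0.07, edgeR adjusted p = 2.41e-51) from α-cells and 1.11 (SE 0.06, adjusted p = 2.78e-24) from δ-cells. CPM leave out the hormone genes, and as the share of all UMIs given above the gap from δ-cells was smaller. The PP-cells with *Sst*, described below, were not apart from δ-cells in *Pyy*.

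The 10 genes named by their smaller difference from the 2 neighbours, among those higher than in both, include *Nkx6-1* and *Folr1*. *Nkx6-1*, a homeodomain factor best known from β-cells, was at 172, 72.1, 129 and 185 CPM in PP-cells (untreated replicates 1 and 2, then NMMA), above α-cells (29.0 to 41.6) and δ-cells (9.97 to 22.2) and below β-cells (306 ± 44.5). Its differences were 2.09 (SE 0.18) and 3.12 (SE 0.27). *Folr1*, a folate receptor, was at 279, 229, 277 and 208 CPM, against 20.2 to 53.4 in α-cells and 74.8 to 138 in δ-cells. It differed by 2.78 (SE 0.16) and 1.17 (SE 0.16). Neither gene overlapped between PP-cells and either neighbour.

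After thinning to 3000 UMIs, *Folr1* was seen in 40.8% of PP-cells (95% interval 31.2 to 50.9), 6.78% of α-cells and 24.2% of δ-cells. *Nkx6-1* was seen in 32.0% (23.2 to 42.0), 7.34% and 4.55%. Both were at 0 of 118 macrophages, which allows up to 3.08%, and in β-cells the shares were 4.08% and 39.9%. Without thinning the shares of PP-cells were 80.6% and 64.1%, at a median depth of 19433 UMIs against 14208.5 in α-cells, 11119 in δ-cells and 11168 in macrophages.

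*Bace2*, a membrane protease, and *Klf5*, a zinc finger factor, were also above both neighbours, at 70.8 ± 11.6 and 36.4 ± 6.51 CPM. The differences were 1.58 and 1.84 for *Bace2* and 2.38 and 1.61 for *Klf5*, which lost its call against δ-cells without NMMA replicate 1 (1.36, adjusted p = 0.087). *Limch1* showed 22.8, 42.3, 23.0 and 112 CPM, against at most 3.08 in α-cells and 8.02 in δ-cells. NMMA replicate 2 stood highest, and without it the difference from δ-cells was 2.05 (adjusted p = 0.050). *Nupr1* and *Depp1*, both stress-inducible, and the chaperone genes *Hsph1* and *Dnajb1* are also among the 10. Of the UMIs in all 159 PP-cells, with and without cytokines, 1 cell held 27.7% for *Depp1*, 24.6% for *Dnajb1*, 12.1% for *Hsph1* and 10.8% for *Nupr1*. *Nupr1* lost its call against δ-cells without untreated replicate 1 (1.13, adjusted p = 0.31), and *Dnajb1* without NMMA replicate 1 (0.70, adjusted p = 0.22) or untreated replicate 2 (adjusted p = 0.078).

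Lower than in both neighbours were *Ttyh1*, *5330439M10Rik*, *Sim1*, *Ckb*, *Gng2*, *Bst2*, *Ptpn9*, *Olfm1*, *Pde1c* and *Rbp4*. *Ttyh1* was at 5.87 CPM in PP-cells, 31.5 in α-cells and 50.6 in δ-cells (-2.34, SE 0.46, and -3.06, SE 0.47). *Sim1*, a transcription factor, was lower by log2 differences of -1.51 (SE 0.34) and -1.98 (SE 0.37). It had 0 UMIs in PP-cells with neither second hormone and 11 in those with *Sst*. *Rbp4*, the plasma retinol carrier, was at 1433 ± 373 CPM against 2670 ± 336 in α-cells and 4983 ± 995 in δ-cells.

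**Figure D2:**
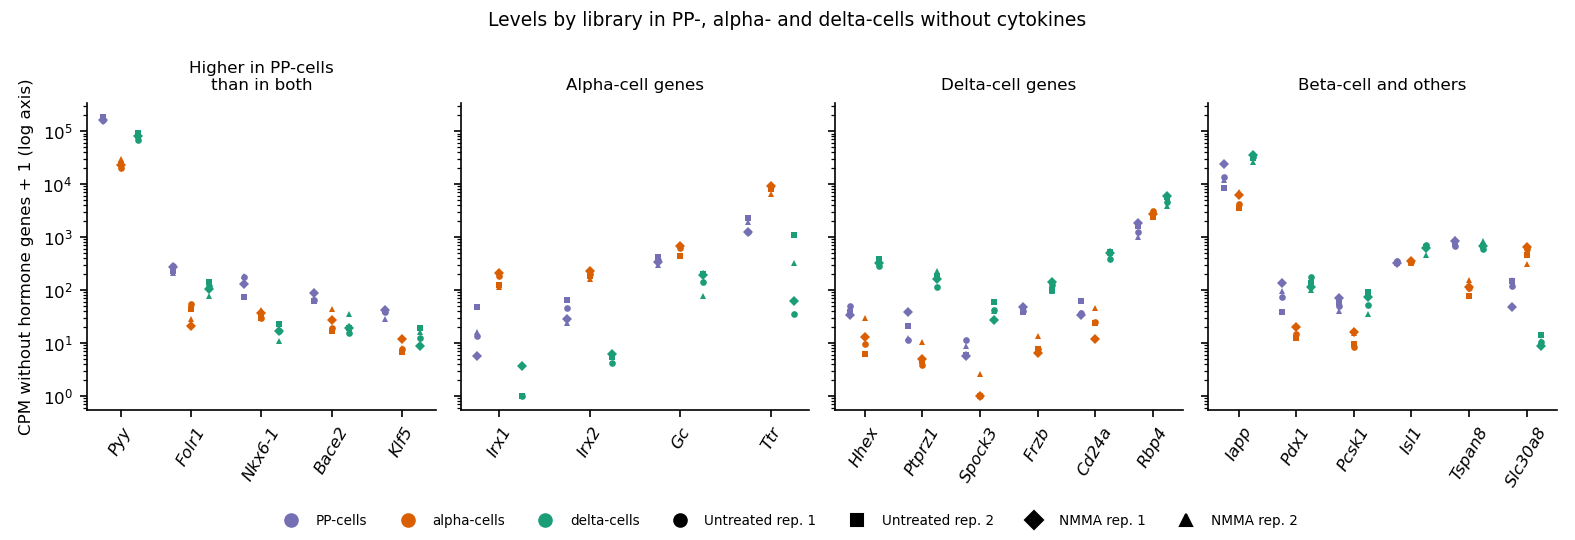
CPM + 1 (log axis, hormone genes left out) of 21 genes in PP-, α- and δ-cells, 1 point for each of the 4 libraries without cytokines. *Pyy*, *Folr1* and *Nkx6-1* lie above both neighbours in each library, *Irx1* and *Irx2* lie below α-cells, and *Hhex* lies between the 2 neighbours.

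Among the PP-cell genes listed from general knowledge, 9 of 19 could be tested. Against α-cells 5 were higher (*Pyy*, *Tspan8*, *Slitrk6*, *Id2*, *Meis2*) and 1 lower (*Etv1*), with a median difference of 0.37 beside 0.00059 for all genes. Against δ-cells 3 were higher (*Pyy* and *Etv1* among them) and 3 lower (*Isl1*, *Slitrk6*, *Meis2*). *Tspan8*, a tetraspanin, was at 685, 738, 848 and 924 CPM in PP-cells and 603, 684, 662 and 832 in δ-cells, which overlap, against 75.4 to 154 in α-cells. Its difference from δ-cells was 0.19 (SE 0.10, adjusted p = 0.249). Of the family of *Ppy*, its receptors and *Dpp4*, the protease that trims these peptides, *Pyy* and *Dpp4* passed the count filter, and *Pyy* alone of these 2 was called.

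α-cell genes divided the PP-cells from both sides. Of 13 tested, 0 were higher and 8 lower than in α-cells (median -1.42), and 7 were higher and 1 lower than in δ-cells (median 1.7). The levels of *Irx1* and *Irx2*, homeodomain factors, did not overlap between PP- and α-cells. *Irx2* was at 45.5, 64.6, 27.7 and 23.1 CPM against 159 to 228 in α-cells (-2.06, SE 0.18) and 3.21 to 5.21 in δ-cells (3.35, SE 0.46). *Irx1* was at 12.4, 47.2, 4.61 and 15.4 CPM against 115 to 205 in α-cells (-2.73, SE 0.31), and 28.3-fold above δ-cells with a counting interval of 4.70 to 1154 (30 against 1 UMIs), a call that was lost without NMMA replicate 2 (adjusted p = 0.095) and with the 80% lead (adjusted p = 0.093).

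The zinc transporter *Slc30a8* was at 115 ± 48.7 CPM, against 501 ± 156 in α-cells and 10.2 ± 2.30 in δ-cells, but its call against α-cells was lost without untreated replicate 1 (-1.81, adjusted p = 0.11) or 2 (-2.14, adjusted p = 0.066). The amino acid transporter *Slc38a5* was lower than in α-cells by -1.97 (SE 0.24), as was the oxytocin receptor *Oxtr* by -2.16 (adjusted p = 2.30e-10). *Ttr*, transthyretin, was at 1259, 2260, 1226 and 1906 CPM in PP-cells and 6361 to 9170 in α-cells, without overlap, but did not pass the test (adjusted p = 0.10).

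δ-cell genes took the opposite course. Of 8 tested, 5 were higher and 1 lower than in α-cells (median 1.15), and 0 were higher and 7 lower than in δ-cells (median -1.67). *Hhex* was at 49.7, 37.3, 32.3 and 42.3 CPM in PP-cells, 289 to 378 in δ-cells and 5.08 to 28.5 in α-cells. The differences were -2.99 (SE 0.24) from δ-cells and 1.72 (SE 0.37) from α-cells, and the latter lost its call without untreated replicate 1 (1.39, adjusted p = 0.068) or NMMA replicate 1 (1.75, adjusted p = 0.053). With the leading hormone at 80% it was 0.91 and not called (adjusted p = 0.36), nor was that of *Ptprz1*, a receptor phosphatase of δ-cells (1.7, adjusted p = 0.27), whose call was also lost without NMMA replicate 1 (adjusted p = 0.054). *Hhex* was seen in 9.71% of thinned PP-cells (4.75 to 17.1), against 52.3% of δ-cells, 3.11% of α-cells and 7.63% of macrophages (19.4%, 85.6%, 5.93% and 33.9% without thinning), so the PP-cell share lies near that of macrophages. *Cd24a*, a surface glycoprotein, was at 41.1 ± 14.1 CPM against 472 ± 55.6 in δ-cells, and *Nptx2*, a neuronal pentraxin, had 2 UMIs in PP-cells against 101 in δ-cells, a ratio of 53.6 (14.5 to 448).

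β-cell genes were unequal. Of 6 tested, 3 were higher than in α-cells (*Iapp*, *Nkx6-1*, *Pdx1*) and 0 lower, and against δ-cells 3 were higher (*Nkx6-1*, *G6pc2*, *Ero1lb*) and 2 lower (*Iapp*, *Pdx1*). *Pdx1* was at 72.5, 37.3, 134 and 96.2 CPM in PP-cells, 11.6 to 18.9 in α-cells (2.52, SE 0.27) and 99.7 to 172 in δ-cells (-0.77, SE 0.21). The call against δ-cells was lost without untreated replicate 1 (-0.48, adjusted p = 0.41) or 2 (-0.51, adjusted p = 0.18). *Iapp*, the amyloid peptide gene, was at 13383, 8576, 23477 and 11784 CPM, against 3586 to 7001 in α-cells and 26137 to 34638 in δ-cells. The *Iapp* call against α-cells was lost without untreated replicate 1 or 2 or NMMA replicate 1 (adjusted p = 0.15, 0.070 and 0.11), and that against δ-cells without any 1 of the 4 libraries (adjusted p = 0.071 to 0.20). *Isl1*, which all islet endocrine cells use, was at 331 ± 13.6 CPM in PP-cells and 333 ± 8.38 in α-cells, and at 607 ± 103 in δ-cells (-0.90, SE 0.11, adjusted p = 1.2e-10).

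Of 16 pan-endocrine transcription factors tested, 3 were higher than in α-cells (*Pax6*, *Mlxipl*, *Meis2*) and 0 lower, and 2 were higher than in δ-cells (*Neurod1*, *Nkx2-2*) and 6 lower. Among 14 genes of prohormone processing and granins, 5 were higher and 4 lower in each comparison. *Pcsk1*, the convertase that opens many prohormones, was higher than in α-cells by 2.28 (SE 0.29). *Chgb*, chromogranin B, lay between the neighbours at 2591 ± 461 CPM, above α-cells (1335 ± 290) and below δ-cells (4673 ± 957). *Vgf*, a granin-like precursor, lay between them in the other order, at 71.5 ± 37.1 against 297 ± 53.3 in α-cells and 20.8 ± 13.6 in δ-cells, and *Pam*, which amidates peptide ends, was lower than in α-cells by -0.73 (SE 0.08).

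Receptors were unequal. Of 7 G protein-coupled receptors tested, 3 were lower than in α-cells (*Sstr2*, *Gpr119*, *Avpr1b*) and 0 higher (median 0.52), and 3 were higher than in δ-cells (*Sstr2*, *Ffar1*, *Avpr1b*) and 1 lower (*Ffar4*, median of the list 1.43). *Ffar1*, a fatty acid receptor, had 51 UMIs in PP-cells against 3 in δ-cells, a ratio of 16 (5.18 to 80.3). Of 22 genes of excitability and exocytosis, 2 were higher (*Scn3a*, *Kcnk16*) and 1 lower (*Slc30a8*) than in α-cells, and 4 were higher and 3 lower than in δ-cells. Of all genes 5.0% were higher and 4.54% lower than in α-cells, and 4.73% and 5.19% than in δ-cells. The counts of this list against α-cells lie near those shares, and nothing is read from them. Of 13 stress genes, 5 were higher than in α-cells (*Hsph1*, *Dnajb1*, *Fos*, *Jun*, *Egr1*) and 0 lower, and 2 were higher and 1 lower than in δ-cells. In the cytokine response list 1 of 13 was higher in each comparison (*Nfkbia* and *Socs3*). This is near the shares of all genes that were higher (5.0% and 4.73%), and nothing is read from it.

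Markers of other cells in the PP-cell sums are given in plain CPM. Those of macrophages summed to 38.0 to 70.6 CPM, against 46.6 to 64.7 in α-cells and a higher 82.9 to 145 in δ-cells. In PP-cells *C1qa* led, with 3 to 5 of the 6 markers at 0. *C1qa* was called lower than in δ-cells (-0.91, SE 0.22, edgeR adjusted p = 0.0019) and was not called against α-cells. Endothelial markers summed to 6.78 to 16.1 CPM, which overlaps the ranges of α- and δ-cells. Mesenchymal markers summed to 0 to 10.4 CPM, against 6.54 to 351 in α-cells and 0 to 8.63 in δ-cells. Acinar markers summed to 36.2 to 315 CPM, against 2.91 to 88.4 in α-cells and 289 to 644 in δ-cells. The highest value was untreated replicate 1, led by *Ctrb1* (94.8 CPM), and *Cela1* led in the other 3. Both acinar genes tested were called higher than in α-cells. *Cela1* was higher by 2.69 (SE 0.61, edgeR adjusted p = 0.040), and 1 cell held 25.6% of its UMIs in all PP-cells. *Ctrb1* was higher by 1.20, and this became -0.27 (adjusted p = 0.81) with cells of at least 5000 UMIs. Against δ-cells *Cela1* was lower (-2.32) and *Ctrb1* higher (1.63). The ductal list (2456 to 3181 CPM, against 2463 to 4827 in α-cells and 1428 to 2105 in δ-cells) was led by *Spp1*. In scaled CPM *Spp1* was at 1858 ± 361 in PP-cells, 2638 ± 809 in α-cells and 121 ± 20.9 in δ-cells. Its difference from α-cells was -0.39 and was not called (edgeR adjusted p = 0.40). The part of such RNA in the differences was not tested. *Ghrl*, the marker of ε-cells, was at 0 to 2.02 CPM.

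The second hormone divided PP-cells along the same genes. Pooled over the 4 libraries without cytokines, the sums held 861233 UMIs for cells with neither, 375095 with *Gcg* and 212556 with *Sst*, and the values that follow are plain CPM with no test, since these subsets were set by the hormones after the values were seen. *Hhex* was at 9.29 CPM in cells with neither, at 0 of 375095 UMIs with *Gcg* and at 231 with *Sst*, near the 336 of δ-cells. *Ptprz1* had 2.32, 0 and 104, *Cd24a* 11.6, 0 and 226, and *Rbp4* 502, 1669 and 4088. Of the *Hhex* UMIs of the class, 49 came from its *Sst* carriers and 8 from cells with neither.

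Several α-cell transcripts were higher in cells with *Gcg*. *Irx1* was at 6.97 CPM with neither and 56.0 with *Gcg*, *Irx2* at 22.1 and 96.0, *Ttr* at 1031 and 3567, *Higd1a* at 53.4 and 373 and *Slc38a5* at 3.48 and 85.3. *Slc30a8* was at 60.4 with neither and 277 with *Gcg*. The levels of *Irx1* and *Slc38a5* with neither rest on few UMIs. Replicate 2 gave 153435 (untreated) and 106939 (NMMA) of the 375095 UMIs with *Gcg*. It gave 232591 and 149151 of the 861233 with neither, and the part of this imbalance was not tested. Cells with neither had the highest *Pyy* (202361 CPM, against 119655 and 84665), *Folr1* (282, 197, 113) and *Tspan8* (812, 576, 645). The *Pyy* level with *Sst* lay within the range of the δ-cell sums (72092 to 91581 CPM). By correlation over genes of the pooled sums, cells with *Gcg* were at 0.942 to α-cells, those with *Sst* at 0.897 to δ-cells, and those with neither at 0.930 to α-cells, 0.886 to β-cells and 0.869 to δ-cells. In each library cells with neither also correlated more with β-cells (0.787 to 0.852) than with δ-cells (0.704 to 0.817). The β-cell sums held 10559627 to 21675088 UMIs per library and the δ-cell sums 196568 to 579215. The part of this depth in the order was not tested. Cells with neither had no limit on the share of the insulin genes. These genes gave 10% or more of the hormone UMIs in 14 of the 64 cells, whose part in the likeness to β-cells was not tested.

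**Figure D3:**
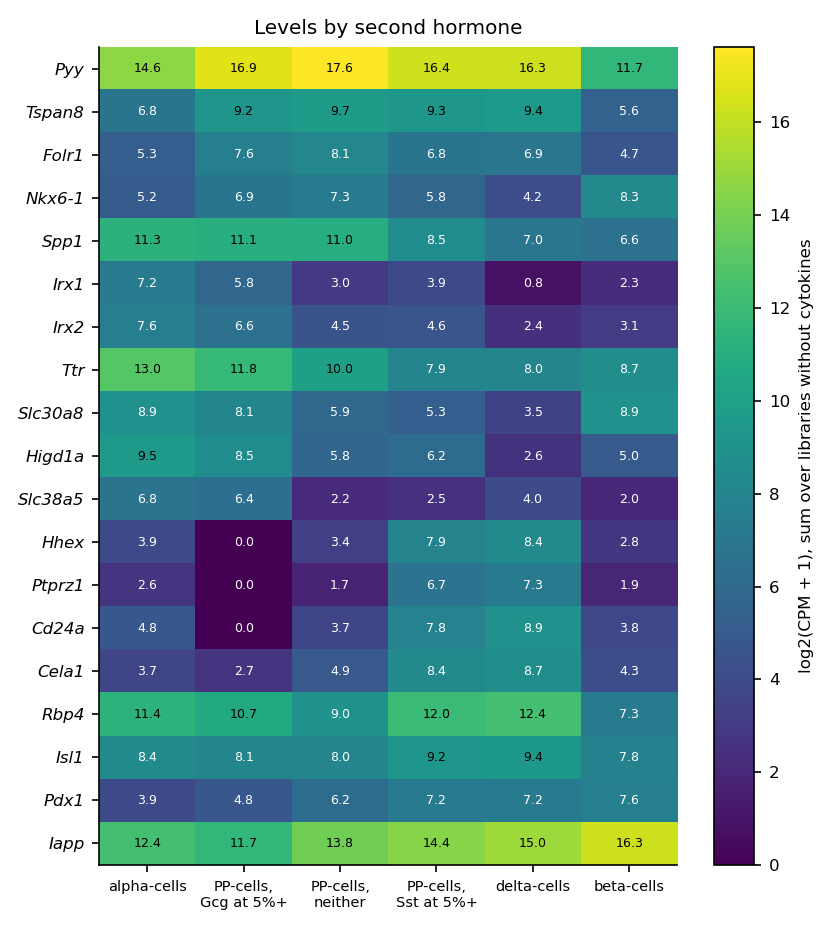
log2(CPM + 1) of 19 genes in α-cells, PP-cells with *Gcg* but not *Sst* at 5% or more of the hormone UMIs, PP-cells with neither *Gcg* nor *Sst*, PP-cells with *Sst*, δ-cells and β-cells, each summed over the 4 libraries without cytokines. *Hhex*, *Ptprz1* and *Cd24a* appear with *Sst*, and *Ttr*, *Higd1a* and *Slc30a8* are higher with *Gcg*.

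A stricter class, with the leading hormone at 80% or more in all 3 classes, rested on 67 PP-cells, 308 α-cells and 54 δ-cells without cytokines. It tested 4033 genes and called 209 higher and 234 lower than in α-cells and 182 higher and 199 lower than in δ-cells. *Pyy* (3.54 and 1.43), *Folr1* (3.36 and 1.22) and *Nkx6-1* (2.64 and 3.83) were further from both neighbours than in the whole class and passed the test. Also further away were *Slc30a8* (-3.47) from α-cells and *Hhex* (-4.62) and *Rbp4* (-2.84) from δ-cells.

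As a further description, the PP-cells of each library were divided at its median of *Gcg*/(*Gcg* + *Ppy*). This ratio is made of 2 genes of the rule and rises with low *Ppy* as well as with *Gcg*, so the values describe its 2 sides and are no test of *Gcg*. On its upper side *Gcg* gave a median of 0.832% and 2.41% of the hormone UMIs in the untreated libraries and 0.382% and 10.6% with NMMA, and it reached 5% in 7 of 22, 6 of 13, 2 of 7 and 6 of 8 cells (1 of the 6 also carried *Sst*). Most cells of the upper side were thus below 5% in each library except NMMA replicate 2. *Sst* carriers numbered 6 against 2 and 3 against 2 (upper against lower side) in the untreated libraries and 3 against 1 and 2 against 0 with NMMA, and their part in the differences was not tested. *Ttr* was at 2058 ± 627 CPM on the upper side and 978 ± 254 on the lower (1.08, SE 0.15). *Higd1a*, a mitochondrial protein gene, differed by 2.49 (SE 0.32) and *Slc30a8* by 1.39 (SE 0.30). *Pyy* was at 103614 ± 33339 CPM on the upper side against 232504 ± 46373 (-1.19, SE 0.20), and *Tspan8* differed by -0.86 (SE 0.16). Of 2650 genes in the fit, 7 were past the threshold on the upper side (0.264%) and 5 on the lower (0.189%), and nothing is read from these counts. They were 14 and 2 without untreated replicate 1, 5 and 2 without untreated replicate 2, 12 and 6 without NMMA replicate 1, and 4 and 2 without NMMA replicate 2.

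Cytokines changed the transcripts of PP-cells in each library that received them. All 8 libraries entered 1 fit, with 56 PP-cells from libraries with cytokines and 103 without, and CPM in the following values come from that fit. Of 5571 genes, 261 were higher with cytokines, with and without NMMA, than in the libraries without (4.68%), and 155 were lower (2.78%). Of 31 genes of the cytokine response list tested, 25 were higher and 0 lower, with a median of 4.66 beside -0.021 for all genes. With the replicate as a block the counts of all genes were 351 and 241, and with the leading hormone at 80% they were 172 and 76 of 2800. Without untreated replicate 1 the lower genes numbered 91, and without NMMA replicate 1 or 2 they numbered 84 and 97.

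*Iigp1*, an interferon-inducible GTPase, was at 0 CPM in each library without cytokines and at 1331 and 689 with cytokines and 1411 and 2134 with cytokines and NMMA. It was at least 770-fold higher (1347 against 0 UMIs, with 3 counts over the group as the floor). *B2m*, the light chain of MHC class I, was at 195 to 239 CPM without and 2019, 2838, 3737 and 2865 with (3.74, SE 0.24). *H2-K1*, a class I heavy chain, was at 672 to 867 without and 2073, 2548, 4645 and 2845 with (1.93, SE 0.23). *Icam1*, an adhesion molecule, had 351 UMIs against 1, a ratio of 602 (107 to 23846). *Nos2*, which makes nitric oxide, was at 0 in the 4 libraries without cytokines and at 393, 30.0, 263 and 1024 CPM with them, and did not pass the test (adjusted p = 0.254). In the libraries with cytokines macrophage markers summed to 18.8 to 126 plain CPM, and their part was not tested.

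Of the PP-cell gene list, 3 of 8 tested were lower with cytokines (*Pyy*, *Slitrk6*, *Isl1*) and 0 higher. *Pyy* was at 156630, 169487, 150797 and 177525 CPM without (untreated, then NMMA) and 84183, 114123, 62013 and 105517 with, without overlap (-0.86, SE 0.22, adjusted p = 0.0162). The call was lost without replicate 1 of cytokines with NMMA (-0.70, adjusted p = 0.15), the library with 11 *Sst* carriers. It was also lost without any 1 of the untreated and NMMA libraries (adjusted p = 0.057 to 0.12) and kept with the leading hormone at 80% (-1.10, adjusted p = 0.0041). Outside that list, *Kcnk16*, a potassium channel gene, was at 189 to 262 CPM without and at 10.9, 30.0, 64.1 and 46.3 with (-2.71, SE 0.30), and *Hepacam2* at 63.5 to 117 without and 0, 0, 10.1 and 8.67 with (-5.47, SE 0.73). *Scgn*, a calcium sensor, was at 191 to 285 without and 54.6 to 107 with (-1.66, SE 0.26). *Nkx6-1* and *Isl1* passed the test for lower levels. With 1 library left out at a time, *Nkx6-1* kept its call only without untreated replicate 2 or replicate 2 of cytokines with NMMA, and *Isl1* only without cytokines replicate 1. *Tspan8* differed by 0.09 (adjusted p = 0.925).

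Of further lists, 4 of 9 α-cell genes, 2 of 7 δ-cell genes, 3 of 4 β-cell genes and 5 of 20 genes of excitability and exocytosis were lower and 0 higher. Of all genes 2.78% were lower and 4.68% higher. Of 13 stress genes, *Ddit3* was higher and *Fos* and *Egr1* lower. *Ddit3*, the transcription factor CHOP of the integrated stress response, was at 22.0 to 72.9 CPM without cytokines, at 480 and 210 with cytokines, and at 54.0 and 40.5 with cytokines and NMMA. The high levels stood in the 2 libraries with cytokines alone. The call for all cytokine libraries (1.72, SE 0.37) was lost without NMMA replicate 2 (1.54, adjusted p = 0.053) and with the 80% lead (adjusted p = 0.061).

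Cytokines alone against untreated rested on 15 and 72 PP-cells and called 141 genes higher (2.53%) and 53 lower (0.951%), or 205 and 109 with the replicate as a block. Of the 31 cytokine response genes 22 were higher and 0 lower (median 4.71). *Ddit3* was higher by 2.76 (SE 0.46, adjusted p = 0.00166), and *Kcnk16* lower by -3.22 (SE 0.51). Without untreated replicate 1 the counts were 73 and 20, without untreated replicate 2 they were 79 and 26, and without cytokines replicate 1 they were 89 and 26. NMMA alone against untreated called 0 of 5571 genes in either direction with edgeR (147 at an unadjusted p under 0.05) and 0 with DESeq2. It rested on 2 libraries per condition, with 15 and 16 PP-cells under NMMA. Differences such as 2.35 (SE 0.98) for *Hspa1b* and -1.08 (SE 0.49) for *Irx2* were not called. The 0 calls therefore do not show that NMMA had no effect.

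**Figure D4:**
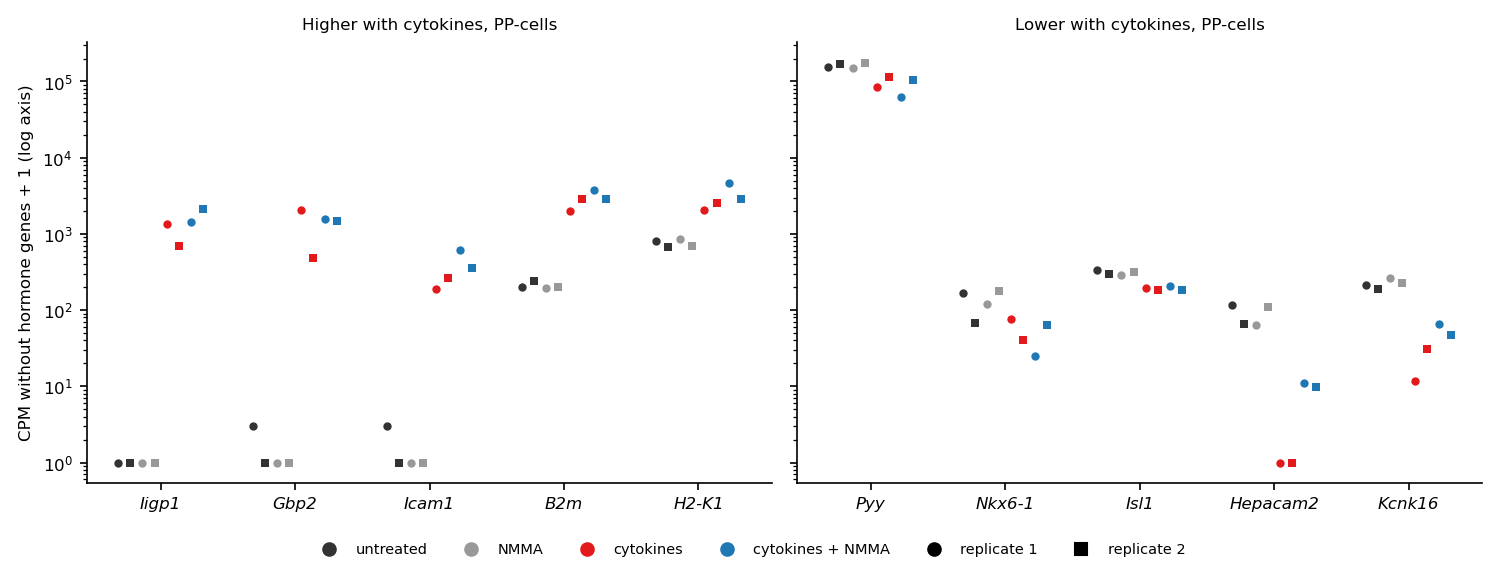
CPM + 1 (log axis, hormone genes left out) of 10 genes in PP-cells of the 8 libraries, 1 point per library, by condition (colour) and replicate (shape). The 4 libraries with cytokines lie above the others for *Iigp1*, *Gbp2*, *Icam1*, *B2m* and *H2-K1*, and below them for *Pyy*, *Isl1*, *Hepacam2* and *Kcnk16*.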

How the data were processed

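The authors deposited raw UMI counts per gene and barcode for each of the 8 libraries, made with CellRanger (3.0.0 in the headers of replicate 1, 6.0.0 in those of replicate 2) and, per the labels, mm10. Genes absent from 1 of the 2 lists were left out, which leaves 30406. The paper's limits of 200 to 5500 detected genes for replicate 1 (6500 for replicate 2) and of 10% for mitochondrial UMIs left 10876 of 17426 barcodes, from which the classes were drawn by their hormone shares, without clustering or removal of doublets. Sums per class and library (at least 5 cells, or 3 for conditions) were tested with edgeR 4.0.16 in R 4.3.3 (filterByExpr, TMM, robust quasi-likelihood test) and adjusted by Benjamini-Hochberg over all genes tested, with a threshold of 0.05. The SE is the log2 difference over the square root of F. Promoters came from RefSeq (GRCm38.p6).

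The cell class and the gene lists were chosen with earlier results of these data known. Genes were named as the 10 (identity) or 5 (other comparisons) largest changes in each direction with 1 sign in every library and at least 20 CPM, the 10 in each direction with the largest change against both neighbours, up to 4 called members of each list, the hormones, *Pyy* and selected factors. A few genes that this rule selects are left out of the text. Others were named after their values were seen. Deviations of same-numbered libraries, which share a pool of mice, correlated between conditions with r of 0.173 to 0.308 (median 0.221, 6 pairs). The scripts were tested on simulated data, and doublets were scored with scanpy 1.11.5 (Python 3.11.15). DESeq2 1.42.0 was an alternative.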

Additional observations from a re-analysis of the deposited data

Results flagged for a closer look

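In PP-cells of the 4 libraries without cytokines, 114 named genes were searched for a library far from the other 3 (by Dixon's ratio), which chance gives in about 1 in 20 groups, and 7 were found. In untreated replicate 2, *Cd24a* was at 62.2 CPM against 32.3 to 35.2 in the others, and *Ctsl*, a lysosomal protease gene, at 738 against 888 to 901. In NMMA replicate 1, the chaperone gene *Dnajb1* was at 212 CPM against 41.4 to 65.4, the sodium channel gene *Scn9a* at 111 against 27.4 to 39.3, and *Fstl5* at 13.8 against 0 to 2.07. In NMMA replicate 2, the claudin gene *Cldn7* was at 216 CPM against 101 to 114, and *Ero1lb*, an oxidoreductase gene of the endoplasmic reticulum, at 46.2 against 87.6 to 95.2. The NMMA libraries held 15 and 16 PP-cells.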

How the results depend on the processing

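Counts of called genes moved with the settings, and scaling by total UMIs also moved the balance of their directions. Higher genes made up 52.4% of the calls against α-cells in the main fit and 16.2% with that scaling. Against δ-cells they made up 47.7% and 27.4%. Counts are given as higher and lower. Here and in the next paragraph, those for *Gcg* compare the upper with the lower side of the *Gcg* ratio. They are no test of *Gcg*, and nothing is read from them. DESeq2 called 179 and 130 against α-cells, 216 and 217 against δ-cells, 3 and 1 for the upper against the lower side of the *Gcg* ratio, 65 lower with cytokines and 14 lower for cytokines against untreated. Scaling by total UMIs gave 192 and 992, 213 and 565, and 2 lower for the *Gcg* ratio. Without the library in the model (no replicate block) they were 193 and 125, 190 higher against δ-cells, and 1 and 1 for *Gcg*. The replicate block gave 241 lower with cytokines, 109 lower for cytokines against untreated and 1 higher for NMMA, and changed the sign of no named gene. In untreated libraries only, they were 178 and 144, 215 higher against δ-cells, and 11 and 3 for *Gcg*. The 80% lead gave 209 higher against α-cells, 182 and 199 against δ-cells, and, chosen after the data were seen, 172 and 76 with cytokines. It left 103 PP-cells in all 8 libraries and 67 in the 4 without cytokines. At most 5% mitochondrial UMIs gave 223 higher against α-cells. No count filter gave 16 higher for *Gcg*, 93 lower for cytokines against untreated and 1 higher for NMMA, and *Gcg* at 10% in place of the median gave 22 and 25.

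Leaving out 1 replicate at a time gave 199 to 307 and 166 to 237 against α-cells, 192 to 303 and 208 to 306 against δ-cells, 4 to 14 and 2 to 6 for *Gcg*, 191 to 255 and 84 to 159 with cytokines, 73 to 158 and 20 to 71 for cytokines against untreated, and 0 to 1 and 0 to 0 for NMMA. Of the genes reported, signs reversed only for differences from α-cells: *Isl1* (-0.15 by total UMIs, -0.013 without count filter, -0.075 with the 80% lead) and *Ctrb1* (-0.27 with 5000 UMIs). Many of the genes reported were named because they were called with 1 sign in every library, so such a gene could hardly reverse. The causes were not tested. Of named genes called, 38 of 72 (α-cells) and 49 of 88 (δ-cells) kept their call in each alternative. With cytokines 31 of 55 did, and for cytokines against untreated 17 of 37. For the upper against the lower side of the *Gcg* ratio 1 of 11 did. The class itself held 196 cells with *Ppy* at 40%, 134 at 60% and 155 with 5000 UMIs.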

Other observations

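Genes named by the size of their change against 1 neighbour included several that the lists do not hold. *Lpl*, lipoprotein lipase, was at 158 ± 24.6 CPM (SD, n = 4 libraries) in PP-cells and 8.97 ± 9.31 in δ-cells (log2 difference 4.78, SE 0.40, edgeR adjusted p = 1.39e-09), and *Cadps*, which primes dense-core granules, at 97.6 and 1.60. *Skap1*, an adapter gene, and *Ror2*, a receptor tyrosine kinase gene, had 0 UMIs in δ-cells against 55 and 40 in PP-cells, at least 17.3-fold and 12.6-fold higher. Against α-cells, *Creb3l1*, a membrane-bound transcription factor gene of the secretory pathway, was at 39.8 CPM and 6.52, and the amino acid transporter gene *Slc38a4* at 54.1 ± 17.5 and 237 ± 30.5 (-2.04, SE 0.17, edgeR adjusted p = 1.81e-16). *Hspb1*, a small heat shock protein gene, was at 252 CPM and 30.8, and 1 cell held 19.3% of its UMIs in all PP-cells.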
